A study of Mus musculus with 8 samples.

Results

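Msln, which encodes mesothelin, was examined with 4 neighbours on mouse chromosome 17 in RNA-seq of mouse embryonic stem cells (mESCs). The neighbours, Mslnl, Rpusd1, Chtf18 and Gng13, follow each other on the low-coordinate side of Msln. All rows were found by gene name. These 5 genes are 5 of the 19429 genes of the deposited table and of its 939 genes on chromosome 17. Msln was selected on the authors' own comparison of the genotypes, and the other 4 genes were chosen by their position on its low-coordinate side. That comparison is not used here, so the data below describe how strongly each gene was expressed across the pooled libraries and not how its level differed between genotypes.

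The study compared WT mESCs with cells in which D2018 of TET1, an enzyme that oxidizes 5-methylcytosine, was changed to alanine (D2018A), a substitution that weakens the binding of the O-GlcNAc transferase OGT to TET1. All lines derive from LF2 mESCs, carry a FLAG tag at the C-terminus of TET1 on both alleles and were propagated from single cells in medium with LIF and serum. The labels list 4 libraries for each genotype, 2 technical replicates from each of 2 clonal lines, which were lines 2 and 5 for WT and lines 7 and 8 for D2018A. The study also describes a deletion distal to the Cas9 cut site that WT cells carry and D2018A cells lack.

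Mesothelin is a glycoprotein held at the cell surface by a lipid anchor, best known from the mesothelial lining of body cavities and from mesothelioma. It binds the mucin encoded by Muc16. Mslnl encodes a mesothelin-like protein. The next genes have unrelated products. Rpusd1 encodes a pseudouridine synthase-like protein of the RluA type, Chtf18 a subunit of the alternative clamp loader that places PCNA on DNA and supports sister chromatid cohesion, and Gng13 a G protein gamma subunit known from taste and olfactory cells.

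The table gives 1 value per gene, the authors' mean of normalized counts over all libraries of their fit, with no value per library. No standard deviation, number of replicates or test therefore accompanies any level. The smallest means fell on 12 values that a single read in a single library would leave, each shared by 38 to 123 genes, so the mean covers 12 libraries where 8 are labelled. Relative library sizes read from these values ran from 0.726 to 1.47. The means include the 4 libraries that the labels do not describe, and the contribution of either genotype to a level cannot be told apart from that of the other libraries.

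The libraries expressed the defining genes of mESCs. All 10 mESC markers examined lay above the median gene of the table, with means from 977 for Zfp42 to 23079 for Esrrb, and Pou5f1 had a mean of 2011 normalized counts. Of the 9 mesothelial markers with a row, 3 lay above the median gene, and their sum was 2095 normalized counts. Podxl, which pluripotent cells also express, gave 1550 of these. Lrrn4 had a mean of 359, with 96.7 normalized counts per kilobase of exon, and Krt19, Calb2 and Upk3b had means of 68.1, 47.3 and 41.6. Krt7 had a mean of 18.8, Gpm6a of 0.314, and the transcription factor genes Wt1 and Bnc1 had means of 9.28 and 0.649. The part of mesothelial transcripts in the level of Msln was not tested. Of 4 fibroblast markers with a row, Col1a2 and Col3a1 had means of 0.689 and 0.0930, whereas Thy1 and Col1a1 had means of 194 and 115. The Col3a1 mean is a value that a single read in a single library would leave. A level in pooled RNA does not separate few cells with much of a transcript from many cells with little.

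To place the genes on the chromosome, their spans were taken from the deposited table (GRCm38.p6). From low to high coordinates, Gng13 spans chr17:25717171-25719406 on the plus strand and Chtf18 chr17:25718926-25727419 on the minus strand. Rpusd1 spans chr17:25727751-25731456 and Mslnl chr17:25736040-25748330, both on the plus strand, and Msln spans chr17:25748614-25754327 on the minus strand. No other gene of the table lies between them. Mslnl and Msln run toward each other and end 283 bases apart. Chtf18 and Rpusd1 are transcribed away from each other from starts separated by 331 bases. Gng13 and Chtf18 also run toward each other, and their spans overlap by 481 bases.

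Because TET1 acts on methylated cytosines in CpG dinucleotides, the CpG content of the promoter windows was examined. RefSeq windows (GRCm38.p6) from 250 bases before to 50 bases after a start were found for 4 of the 5 genes, and none for Msln. The 4 windows printed here, 5′ to 3′ on the strand of each gene with every CG in capitals, show the CpG-poor Mslnl start beside the 3 more CpG-rich windows. The upstream Gng13 window, which held few CG dinucleotides as well, is described below without its sequence.
Mslnl, chr17:25735790-25736089, plus strand: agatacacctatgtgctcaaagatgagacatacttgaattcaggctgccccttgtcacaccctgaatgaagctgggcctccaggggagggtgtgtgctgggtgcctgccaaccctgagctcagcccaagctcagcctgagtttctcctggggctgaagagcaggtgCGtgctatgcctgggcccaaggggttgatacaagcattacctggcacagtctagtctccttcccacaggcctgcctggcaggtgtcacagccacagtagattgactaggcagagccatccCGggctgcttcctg
Rpusd1, chr17:25727467-25727766, plus strand: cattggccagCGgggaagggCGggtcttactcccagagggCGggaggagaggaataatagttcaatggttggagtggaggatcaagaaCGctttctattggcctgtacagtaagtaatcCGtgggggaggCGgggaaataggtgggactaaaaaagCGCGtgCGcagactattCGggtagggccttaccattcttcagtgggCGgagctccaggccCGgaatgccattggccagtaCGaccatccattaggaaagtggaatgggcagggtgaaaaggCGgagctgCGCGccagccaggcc
Chtf18, chr17:25727366-25727665, minus strand: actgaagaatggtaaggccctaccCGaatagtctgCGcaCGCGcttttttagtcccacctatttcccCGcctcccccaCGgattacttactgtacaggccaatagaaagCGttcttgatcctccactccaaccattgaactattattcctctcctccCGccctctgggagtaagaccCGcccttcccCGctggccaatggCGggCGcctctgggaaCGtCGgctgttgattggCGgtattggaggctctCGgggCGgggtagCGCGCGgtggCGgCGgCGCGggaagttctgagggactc
Gng13, downstream start, chr17:25717278-25717577, plus strand: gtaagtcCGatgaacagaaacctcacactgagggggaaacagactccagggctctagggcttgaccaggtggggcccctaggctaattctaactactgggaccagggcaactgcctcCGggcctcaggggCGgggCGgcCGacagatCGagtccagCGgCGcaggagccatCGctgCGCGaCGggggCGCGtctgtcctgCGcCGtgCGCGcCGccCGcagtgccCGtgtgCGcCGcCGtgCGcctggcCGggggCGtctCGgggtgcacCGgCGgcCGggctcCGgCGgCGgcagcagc

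The Mslnl window held 2 CG dinucleotides, and 14.1% of all 32851 windows held fewer. The windows of Rpusd1 and Chtf18, which share 199 bases because the genes diverge, held 16 and 24. Fewer were found in 67.0% and 80.0% of all windows. Gng13 has a pair of annotated starts. The downstream window held 34 CG dinucleotides, more than 92.3% of windows, and the upstream window at chr17:25716922-25717221 held 6, against a median of 7 over all windows. CG reads the same on both strands, and 94.6% of all windows held at least 1. These counts describe sequence, and methylation of these windows was not analysed here.

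The 5 genes covered a wide range of levels. Msln had a mean of 205 normalized counts, higher than 64.9% of the genes in the table and 3.24 times the median gene, which had a mean of 63.2. Its neighbour Mslnl had a mean of 30.7, below the median gene and above 42.7% of genes. Msln and Mslnl were thus unequal, although their ends lie 283 bases apart. The highest of the 5 was Chtf18 with a mean of 1035, above 87.9% of genes. Rpusd1 had a mean of 513, above 78.6% of genes. Gng13 had a mean of 71.8, close to the median gene, and lay above 51.5% of genes.

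**Figure D1:**
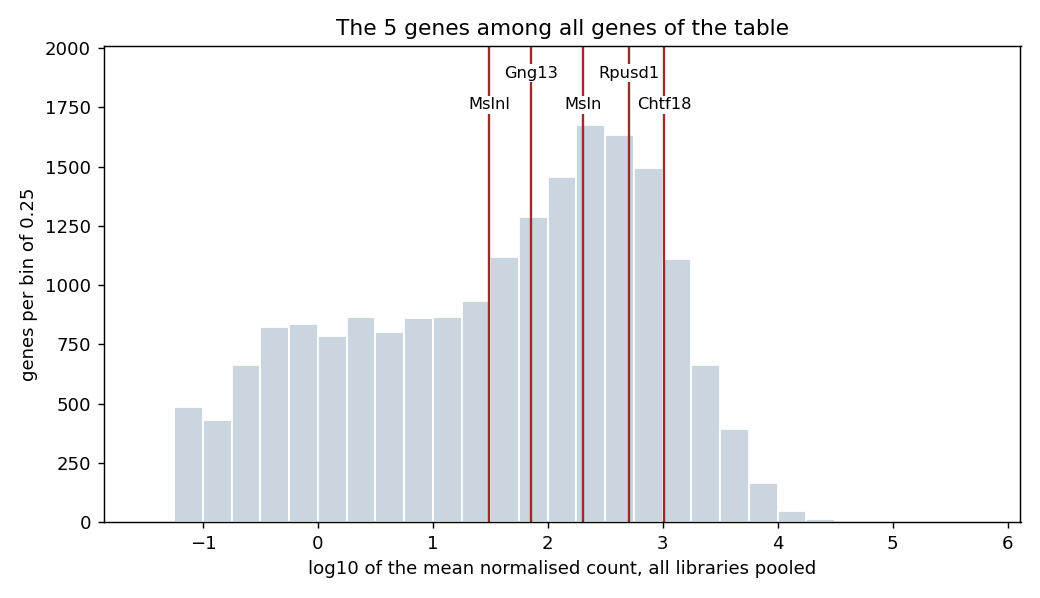
Histogram of the log10 mean normalized count of all 19429 genes, pooled over libraries, with 1 vertical line for each of the 5 genes. The order from left to right is Mslnl (30.7), Gng13 (71.8), Msln (205), Rpusd1 (513) and Chtf18 (1035), on either side of the median gene at 63.2.

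Counting error was small beside these differences. Over 12 libraries the Mslnl mean corresponds to between 268 and 543 reads, depending on which libraries held them, and the Msln mean to between 1783 and 3620. With the fewest reads that the means allow, the exact Poisson 95% interval was 27.2 to 34.6 for Mslnl and 195 to 214 for Msln. It was 66.3 to 77.7 for Gng13, 498 to 528 for Rpusd1 and 1014 to 1056 for Chtf18. These intervals cover counting error only, and the variation between libraries, lines and genotypes is not part of them.

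Levels were next compared between genes per kilobase (kb) of annotated exon, since long transcripts give more reads. On this scale Rpusd1 was highest with 283 mean normalized counts per kb, followed by Chtf18 with 195, Gng13 with 92.9, Msln with 66.8 and Mslnl with 11.7. The level of Msln per kb was 5.71 times that of Mslnl, and Rpusd1 was 4.23 times as high as Msln. With the longest transcript of each gene as its length, these ratios were 8.08 and 3.08. Rpusd1 exceeded Chtf18, its partner across the shared promoter, by a ratio of 1.45. This ratio was 1.07 when the longest transcript of each gene was used as its length, so the margin between Rpusd1 and Chtf18 depended on the length used. The ratio of Gng13 to Msln was 1.39. It was 1.06 with the longest transcripts. It was 2.87 with the whole mean of each gene divided by only its exonic bases that belong to no other gene. Whether neighbours in this order differ beyond the spread between libraries was not tested.

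The level of Gng13 is the least certain of the 5. Of its 773 exonic bases, 399 (51.6%) are also exonic in Chtf18 on the opposite strand, and these include 103 coding bases of Gng13. For Chtf18 the same 399 bases are 7.53% of 5299. The library kit keeps strand, but the strand setting of the counting is not given in the sources used here. If reads in the shared bases went to neither gene, Gng13 would have 192 mean normalized counts per kb over the remaining 374 bases. How reads in the shared bases were assigned was not tested, and the mean of Chtf18 was 14.4 times that of Gng13. Mslnl shares 92 of its 2626 exonic bases with Gm25083 on the opposite strand, a gene without a row in the table. Msln and Rpusd1 share no exonic base with another annotated gene.

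Sequence similarity was examined because 50-base reads that match several genes can be misassigned. For Msln, 2.88% of the 50-base stretches of its annotated transcripts also occur on the same strand in transcripts of other genes. On the opposite strand the share was 2.67% for Msln and 1.67% for Mslnl. For Chtf18 it was 0.855% on the same strand and 6.64% on the opposite strand. No stretch of Mslnl, Rpusd1 or Gng13 occurs on the same strand in another gene, so none is shared between Msln and Mslnl. For Gng13, 43.0% are found in Chtf18 on the opposite strand, which is the overlap described above.

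To ask how the 5 genes compare with their surroundings, all genes of the table within 100 kb of Msln were listed. The window held 19 genes, 18 of them protein-coding, and 13 (68.4%) lay above the median gene of the table. The 19 include the 5 genes themselves. Protein-coding genes ran higher than the whole table, since Gng13 lay above 51.5% of all genes but 45.1% of protein-coding genes. The share of all protein-coding genes above the median gene was not computed. Chtf18 ranked 1, Rpusd1 3, Msln 10, Gng13 13 and Mslnl 15 by mean. Per kb Rpusd1 ranked 1, Chtf18 3, Gng13 5, Msln 9 and Mslnl 15. On the far side of Msln the next gene is Narfl (chr17:25773776-25783332), which encodes a factor for cytosolic iron-sulfur cluster assembly and had a mean of 197 normalized counts. Per kb Narfl had 31.7, below the 66.8 of Msln. Haghl, which overlaps the Narfl span, had a mean of 21.8. Stub1, the gene of the ubiquitin ligase CHIP, had the second highest mean of the window, 658, and the lowest was Gm20683 with 0.0833. The Gm20683 mean is a value that a single read in a single library would leave. Of the 5 genes, only Mslnl had a mean below the median gene of the table.

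**Figure D2:**
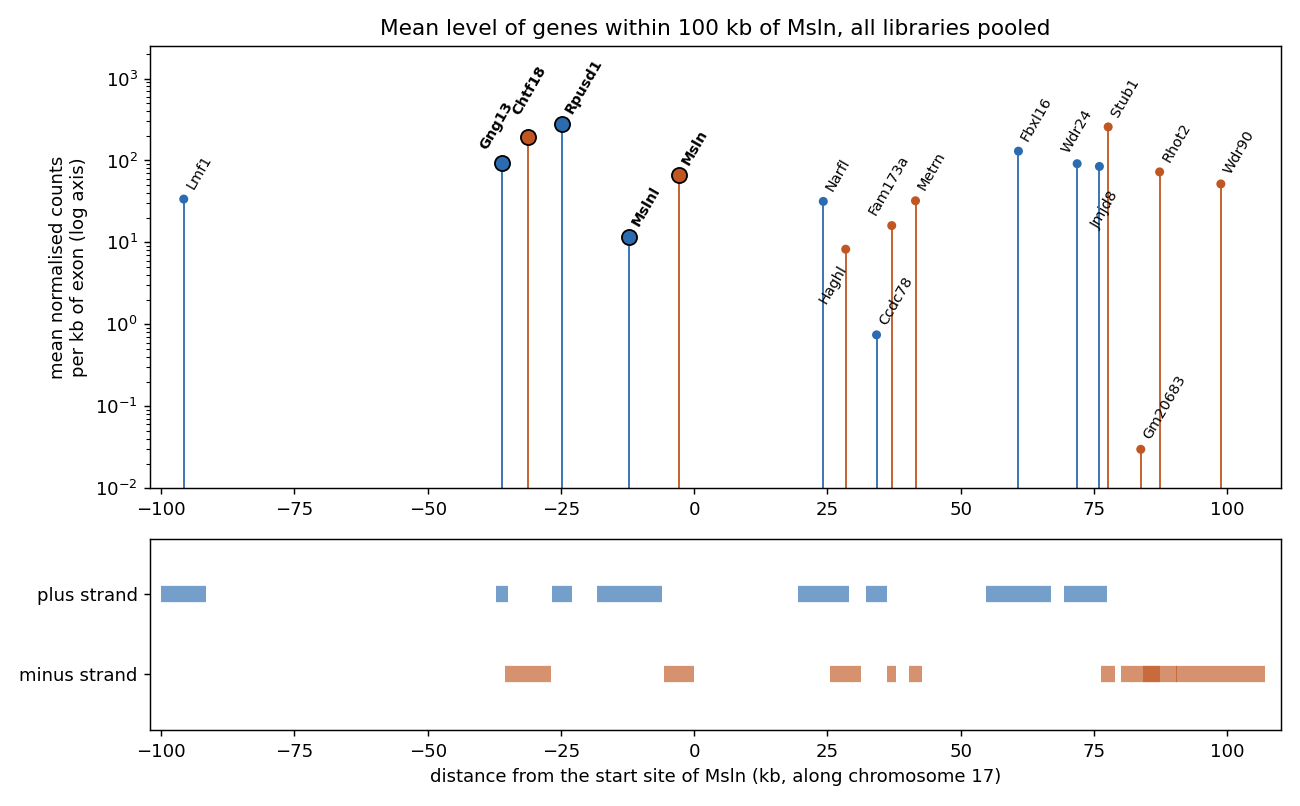
Mean normalized counts per kb of exon (upper panel, log axis) of the 18 protein-coding genes within 100 kb of Msln against distance from the Msln start, with gene spans by strand in the lower panel (blue, plus strand, and orange, minus strand). The 5 genes are the outlined points, and Mslnl with 11.7 lies between Rpusd1 with 283 and Msln with 66.8. Spans are cut at the edges of the window.

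Relatives of each gene were then compared per kb of annotated exon. No other length was tried for the relatives. In the mesothelin family, Msln was the highest, with 66.8 mean normalized counts per kb, and Mslnl followed with 11.7. Otoa and Strc, which encode the related inner ear proteins otoancorin and stereocilin, had 0.238 and 0.101, and their means were 2.01 and 0.626 normalized counts. Muc16, the gene of the mesothelin-binding mucin, had a mean of 2.21. Msln and Mslnl were therefore the members of this family of 4 with means over 10, and Muc16 lay above 22.4% of genes.

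Gng13 ranked 4 of the 10 gamma subunit genes with a row, after Gng3, Gng5 and Gng2 with 367, 317 and 141 mean normalized counts per kb. The lowest was Gng4 with 0.589. Among the beta subunits that pair with gamma subunits, Gnb1 was highest with 821 and Gnb3 lowest with 0.356 per kb. Of 6 listed genes that act with Gng13 in taste and olfactory transduction, 5 had a row and Gnat3 had none. Itpr3, a calcium channel of internal stores with broad expression, had a mean of 1278 normalized counts. The olfactory adenylyl cyclase gene Adcy3 and the olfactory G protein alpha gene Gnal had means of 151 and 48.1, which is 24.2 and 4.30 per kb. The taste channel gene Trpm5 and the phospholipase gene Plcb2 had means of 4.59 and 2.58.

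Rpusd1 ranked 2 of 13 pseudouridine synthase genes per kb, after Dkc1, the catalytic subunit of box H/ACA particles, with 310. Rpusd2, Rpusd3 and Rpusd4 had 195, 182 and 60.6, and the lowest was Pus7l with 11.6. All but 1 of the 13 genes had means above the median gene of the table. Chtf18 ranked 5 of 11 clamp loader genes and partners. With its longest transcript as its length, Chtf18 had 271 per kb, so this rank may depend on the length used. The highest was Chtf8, a subunit of the same Ctf18 complex, with 856 per kb, while the other specific subunit, Dscc1, was lowest with 18.9. Of the small subunits shared between clamp loaders, Rfc2 with 210 and Rfc5 with 209 lay near the 195 of Chtf18, and Rfc3 with 54.3 and Rfc4 with 26.2 lay below it. Of these 11 genes 10 lay above the median gene. Both counts are set against the median of all genes of the table, and protein-coding genes ran higher than the whole table.

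**Figure D3:**
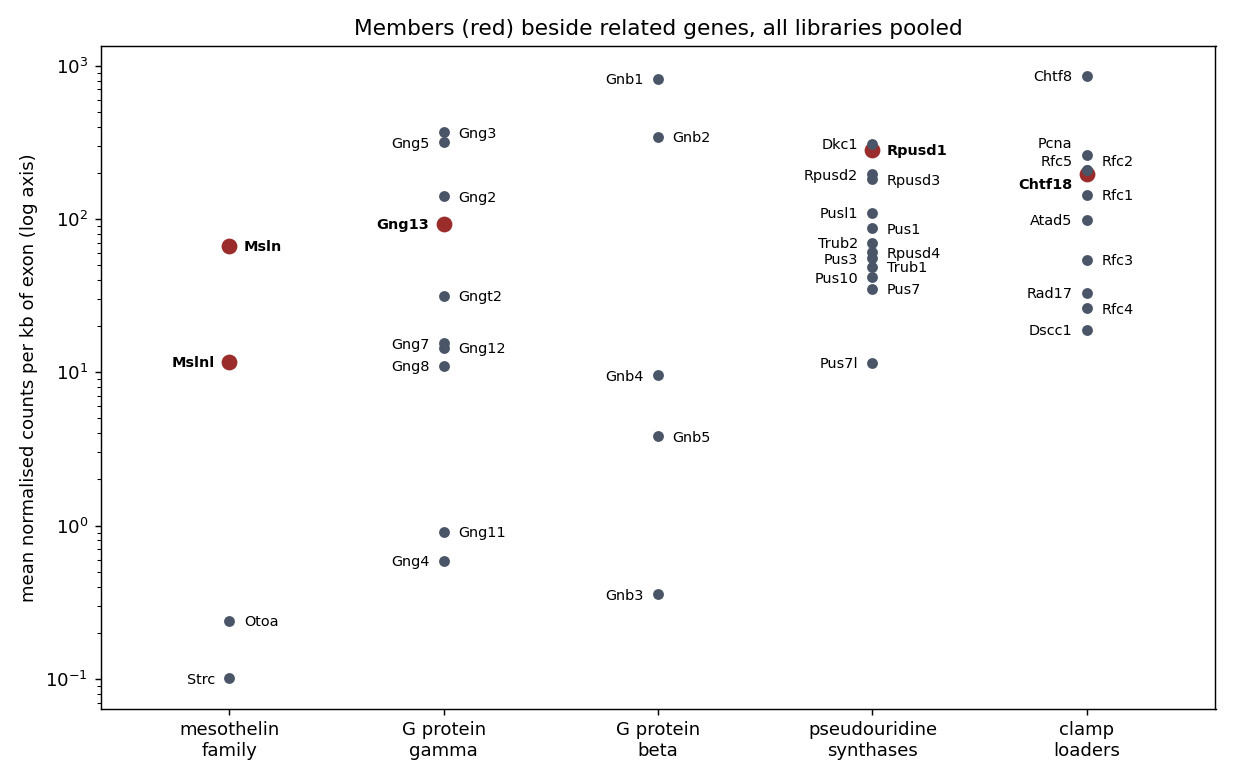
Mean normalized counts per kb of exon (log axis) of the 5 genes (red) and their relatives, 1 point per gene in each of 5 groups, pooled over libraries. Msln at 66.8 stands above the other mesothelin family genes. Rpusd1 at 283 ranks 2 of 13 in its group, and Chtf18 at 195 ranks 5 of 11.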

How the data were processed

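RNA was depleted of ribosomal RNA and sequenced as single-end 50-base reads. The authors aligned reads to GRCm38.p6 and counted them per gene with STAR 2.5.3a, then normalized the counts with DESeq2 1.20.0. The deposited table holds the authors' mean normalized signal per gene, that is, counts divided by a size factor per library and averaged over libraries, with no correction for gene length. Of its 14 columns, 5 hold the authors' own comparison of D2018A with WT (log2 fold change, its standard error, the statistic, p-value and adjusted p-value). These were neither used nor printed. The table has 0 columns of single libraries, so no group comparison, replicate check or pairing was possible.

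The means were analysed with Python 3.11.15, NumPy 2.4.6, pandas 2.3.3 and SciPy 1.17.1, and plotted with Matplotlib 3.10.9. Exon lengths came from GENCODE vM21 (GRCm38), which held 19342 of the 19429 identifiers. A single-read step was a value shared by at least 30 genes that was not a sum of lower steps. The step search was tried on simulated data with 12 libraries, the number found here, and its outcome is not given here. No other number of libraries was simulated. A percentile is the percentage of genes with a lower mean. Genes named were the 5 members, genes within 100 kb of Msln that adjoin a member or are extreme, and the highest and lowest genes of lists of relatives and markers. Other list members named beside them were picked after their values were seen. Haghl and Stub1 were named outside these rules. The members and lists were chosen with earlier results of these data known. Alternatives varied the length, the genes ranked, the window and the step size.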

Additional observations from a re-analysis of the deposited data

Results flagged for a closer look

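The 12 single-read steps exceed the 8 labelled libraries by 4. The reads of these 4 libraries enter each of the means given above. They were flagged as signal from libraries that the labels do not describe. Which cells they came from is not given in the sources used here, and their share of the Msln mean was not tested.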

How the results depend on the processing

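Of 29 alternatives, 19 moved a value by less than 1.5-fold, or by less than 5 points for a percentile, and 10 moved it further. Some of the 19 could not move a value. Msln and Rpusd1 share no exonic base with another gene, and Mslnl has 1 annotated transcript, so their lengths stayed the same there. With genes of a mean of at least 1 only, the percentiles were 57.9 for Msln, 31.2 for Mslnl and 41.8 for Gng13. Among protein-coding genes they were 35.7 for Mslnl and 45.1 for Gng13. Ranked per kb, they were 70.2 for Msln, 90.6 for Rpusd1 and 75.8 for Gng13. These shifts follow from the genes ranked and from transcript length. Dividing the whole Gng13 mean by its 374 exonic bases of no other gene gave 192 per kb. This value assumes that no read in the shared bases was counted for Gng13. Within 50 kb of Msln, 6 genes of 11 (54.5%) lay above the median gene, against 13 of 19 (68.4%) within 100 kb. The number of genes was compared, and it can fall because a smaller window holds fewer genes. The order of the 5 genes per kb was the same with each of the 3 lengths. The single-read steps numbered 12 with at least 20 genes a step and 10 with at least 40. No paired analysis was possible because the table gives no value per library, and for the same reason no replicate could be left out. Depth limits Mslnl most, at no fewer than 268 reads in all.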
